A study of Homo sapiens with 6 samples.

Results

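Translation initiation and elongation factors, the proteins that bring the ribosome to a start codon and move it along the message, were followed at the RNA level in OVCA433 cells with and without versican. The genes taken were those measured by probe sets with a single annotated symbol made of EIF or EEF and a number, and they include kinases, methyltransferases and binding proteins whose symbols are built the same way. EIF4EBP1, EIF2AK3 and 4 antisense or divergent-transcript genes were left out. This gave 56 genes with 143 probe sets, of 19775 genes with a singly annotated probe set, and each was represented by its brightest probe set. A further 16 probe sets that hold a factor carry several symbols, so that EIF4A1, EEF1B2, EEF1G and EIF4EBP3 were not analysed here and EIF3C and EIF4A2 were measured by dim probe sets alone.

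OVCA433 is 1 established line of high-grade serous ovarian cancer, and versican is an extracellular matrix proteoglycan that carries chondroitin sulfate chains. Cells were seeded in 60 mm dishes in RPMI1640 with 10% serum, and 24 hours later the medium was exchanged for fresh medium, without versican for the 3 control samples and with versican for the 3 treated samples. RNA was taken at 48 hours, and 100 ng of each sample was labelled and hybridized to its own Affymetrix Human Genome U133 Plus 2.0 array. The form and dose of versican are not stated in the sources used here, and the treatment protocol mentions transfected cells where the sample labels do not. The design text calls the samples independent, but separate days or cultures are not stated, so the p-values weigh differences against a spread between samples that may be technical only.

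Initiation starts with the ternary complex of eIF2, GTP and the initiator tRNA on the small ribosomal subunit, helped by eIF1, eIF1A, eIF3 and eIF5, while the eIF4 proteins bind the cap and open the leader of the message. After start-codon recognition eIF2 is released with GDP, and eIF2B exchanges that GDP for GTP. Kinases that phosphorylate the alpha subunit of eIF2 turn it into an inhibitor of eIF2B, which lowers initiation on most messages and is the core of the integrated stress response. In elongation, eEF1A brings aminoacyl-tRNA to the ribosome, eEF2 moves the ribosome by one codon and eIF5A helps at slow peptide bonds. Many cancer cells depend on these factors for growth, and several are controlled through mTORC1.

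Values are MAS5 signals on a linear scale that has no unit. The 2% trimmed mean signal was 500.1 on every array and the median signal ran from 62.8 to 75.8, with the highest median on control array 1. Signals correlated at 0.993 to 0.995 within a group and at 0.969 to 0.972 between groups. The 3'/5' ratio of ACTB, a sign of RNA quality, was 1.26 ± 0.035 in control and 1.25 ± 0.013 in versican (SD, n = 3 each), and that of GAPDH was 0.968 ± 0.016 and 0.962 ± 0.023. All 7 epithelial markers and 5 of 6 serous ovarian markers were bright enough to be tested, WT1 being the exception, while 0 of 7 fibroblast and 0 of 5 endothelial markers were. Of 5 leukocyte markers measured, LAPTM5 alone passed, at 786 in control and 977 in versican, and PTPRC, which defines leukocytes, stood at 14.5 and 25.3. The summed epithelial markers ran from 113570 to 131830 in control and from 116650 to 118920 in versican. Among them the means of KRT7 (25506 and 22984), KRT19 (20900 and 18006), EPCAM and CLDN4 were lower in versican. Those of KRT8, KRT18 and CDH1 were higher. For KRT8, KRT18, CDH1 and EPCAM the difference between the means was smaller than the SD of the control arrays. The summed serous ovarian markers did not overlap, from 6390 to 6516 in control and from 8198 to 8582 in versican. PAX8 was higher, at 2034 ± 150.4 in control and 3805 ± 259 in versican (SD, n = 3 each). MECOM was higher too, at 2664 ± 169 and 3087 ± 111. The means of MUC16 (810 and 719), MSLN (576 and 466) and SOX17 (367 and 319) were lower in versican. The part of this shift in the results below was not tested.

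Called higher with versican were 4 of 5 eIF2B subunits, EIF5A, EIF6, EIF4EBP2 and 1 or 2 genes in each of several other initiation complexes. Most of the eIF3 subunits and all tested EEF genes were not called, and 3 genes were lower. Of the 56 genes, 51 were among the 9887 genes in the upper 50% by mean level and were tested with limma on log2(signal + 16). At an adjusted p of at most 0.05 over all tested genes, 17 of the 51 were called (33.3%), against 41.6% of all tested genes. The calls were 14 higher (27.5%, against 21.0% of all genes) and 3 lower (5.88%, against 20.6%). The 3 control and 3 versican arrays did not overlap for 21 of the 51, against 52.2% of all tested genes. The changes were small. The median log2 fold change, versican minus control, was 0.05 for the factors and 0.01 for all tested genes, and the median size of the called changes was 0.27 for the factors and 0.37 for all called genes. Values ran from -0.34 for EIF1AD and EIF2AK1 to 0.49 for EIF5A, with 30 positive and 21 negative. All 17 calls lay among the 43 EIF genes tested, and limma called 0 of 8 EEF genes, 0 also at an unadjusted p of 0.05. In whole dishes, fewer cells with an RNA and less of the RNA per cell cannot be told apart. An 18S ribosomal RNA signal over 3 probe sets was 1.15-fold higher with versican (exact permutation p = 0.1, the smallest that 3 against 3 allows), and its part in these results was not tested.

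**Figure D1:**
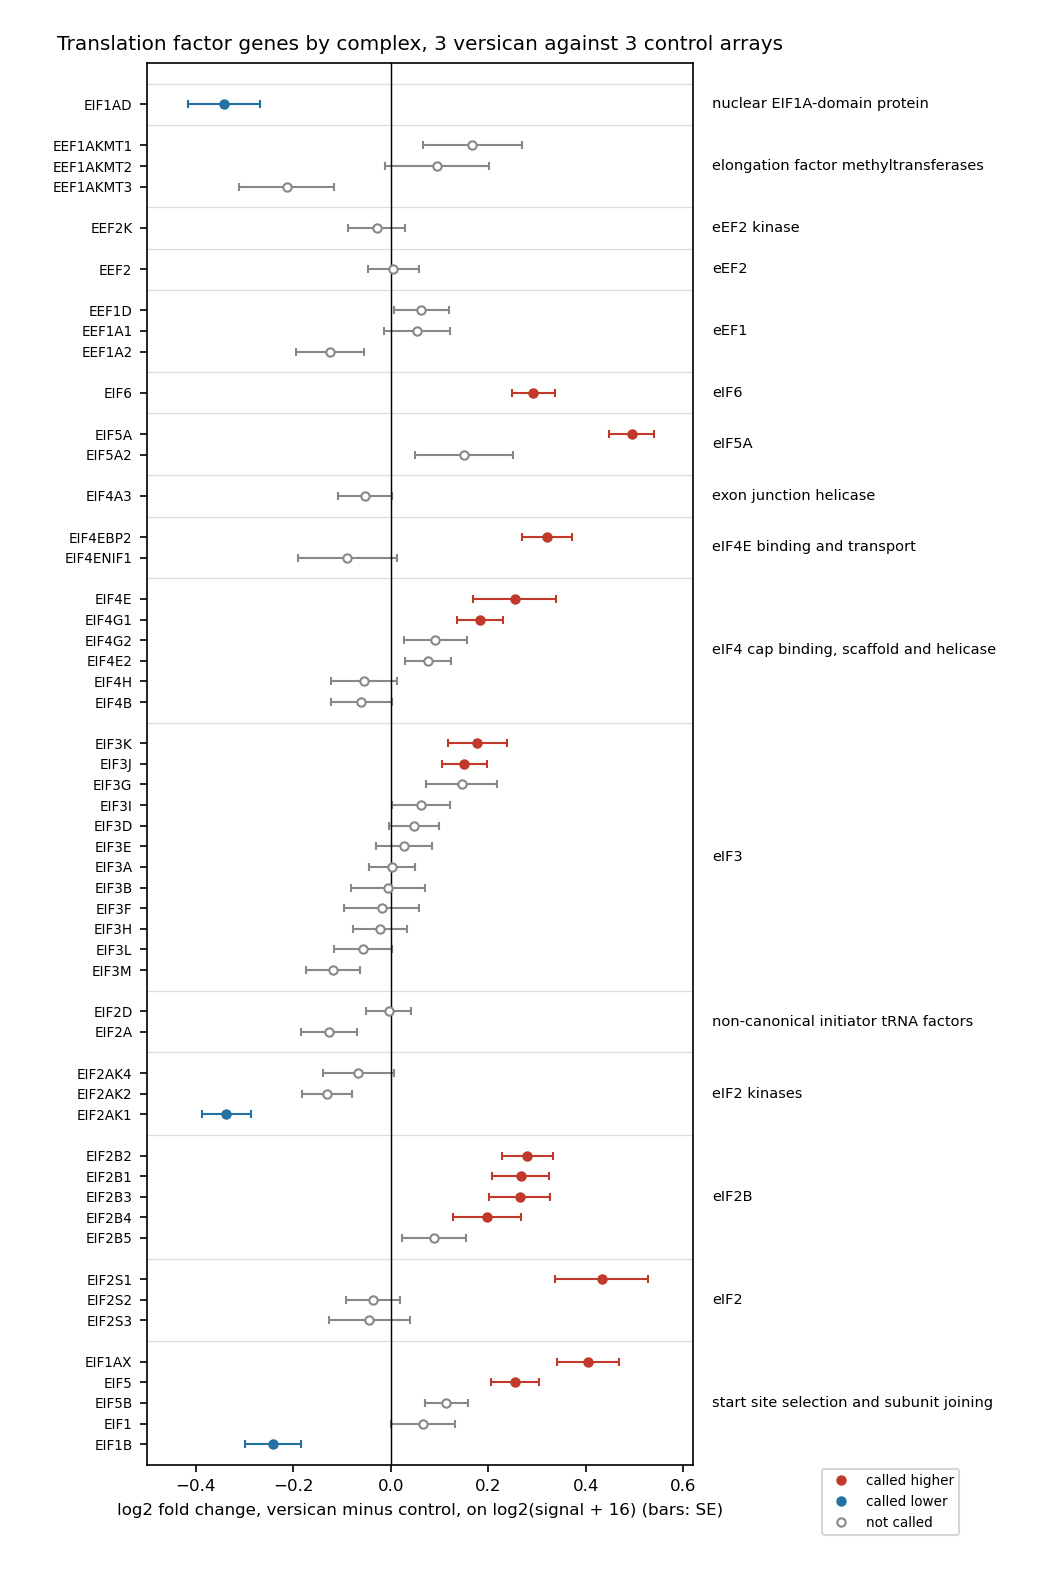
The log2 fold change of each of the 51 tested genes (horizontal axis, versican minus control on log2(signal + 16)) is shown by complex, with bars for the standard error; filled points were called. Of the eIF2B subunits 4 of 5 lie to the right of 0 as called, the eIF3 subunits lie between -0.12 and 0.18, and no EEF gene is filled.

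The first bases of the messages are shown next, because the genes with a tract of pyrimidines there are a separate class. Messages that begin with a C and a run of pyrimidines, the terminal oligopyrimidine (TOP) messages, include those of many ribosomal proteins and elongation factors, and their translation is under mTORC1 and LARP1. RefSeq promoters of GRCh38.p14, from 250 bases before to 50 bases after the start, were matched for 44 of the 56 genes, 40 of them tested. A start with C followed by 4 pyrimidines, on the strand of the gene and at any of its listed starts, was held by 10 of these 40 (25%), by 7.45% of all tested genes with a promoter and by 4.07% of 35116 promoters. The feature was looked at after the values were known and is a description of these letters alone. For the 10 genes, windows of 30 bases run from 15 bases before the start, with the 5 bases from the start on in capitals:
EIF2A, chr3:150546772-150546801, plus strand: tcacccgagcggtttCTCTTtccgggacaa
EIF2D, chr1:206612451-206612480, minus strand: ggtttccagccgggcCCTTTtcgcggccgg
EIF2S3, chrX:24054941-24054970, plus strand: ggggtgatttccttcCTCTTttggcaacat
EIF3D, chr22:36529152-36529181, minus strand: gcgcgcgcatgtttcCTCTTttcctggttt
EIF3F, chr11:7987322-7987351, plus strand: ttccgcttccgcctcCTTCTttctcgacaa
EIF3K, chr19:38619173-38619202, plus strand: ttccgtttccaccacCTCTTcctgttcccg
EIF3M, chr11:32583816-32583845, plus strand: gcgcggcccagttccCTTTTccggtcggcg
EIF4B, chr12:53006441-53006470, plus strand: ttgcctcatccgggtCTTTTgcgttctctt
EEF1A1, chr6:73521018-73521047, minus strand: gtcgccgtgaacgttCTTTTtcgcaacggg
EEF2, chr19:3985449-3985478, minus strand: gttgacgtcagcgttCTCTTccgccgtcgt

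For comparison, windows of 8 genes outside that class are given, cut and capitalized in the same way. They were picked as called higher with 1 listed start each, so they do not show the range of starts outside the class:
EIF1AX, chrX:20141824-20141853, minus strand: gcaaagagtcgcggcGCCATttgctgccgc
EIF2S1, chr14:67360313-67360342, plus strand: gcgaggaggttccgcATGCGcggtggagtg
EIF2B1, chr12:123633672-123633701, minus strand: gaggggtacggaagtGCGCCggaagtgggg
EIF2B2, chr14:75002906-75002935, plus strand: gacctcgcccgccccGGAAGtgcaaactgt
EIF2B3, chr1:44986581-44986610, minus strand: attgggctgtcagtcAGAGGcggcgtggag
EIF3J, chr15:44537132-44537161, plus strand: cacctccgccgtgctAACTCctcgctagct
EIF4E, chr4:98929119-98929148, minus strand: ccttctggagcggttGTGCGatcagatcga
EIF4EBP2, chr10:70404130-70404159, plus strand: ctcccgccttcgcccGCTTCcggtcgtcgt

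Of the 10 genes with the pyrimidine start, EIF3K alone was called, and the log2 fold changes ran from -0.13 to 0.18 with a median of -0.01. Of the other 30 tested genes with a promoter, 15 were called, 13 higher and 2 lower, with a median of 0.10. Among all tested genes the class was called about as often as the rest, 246 of 616 (39.9%) with the pyrimidine start and 3184 of 7649 (41.6%) without it, so the counts above describe the factors and show nothing about the class.

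**Figure D2:**
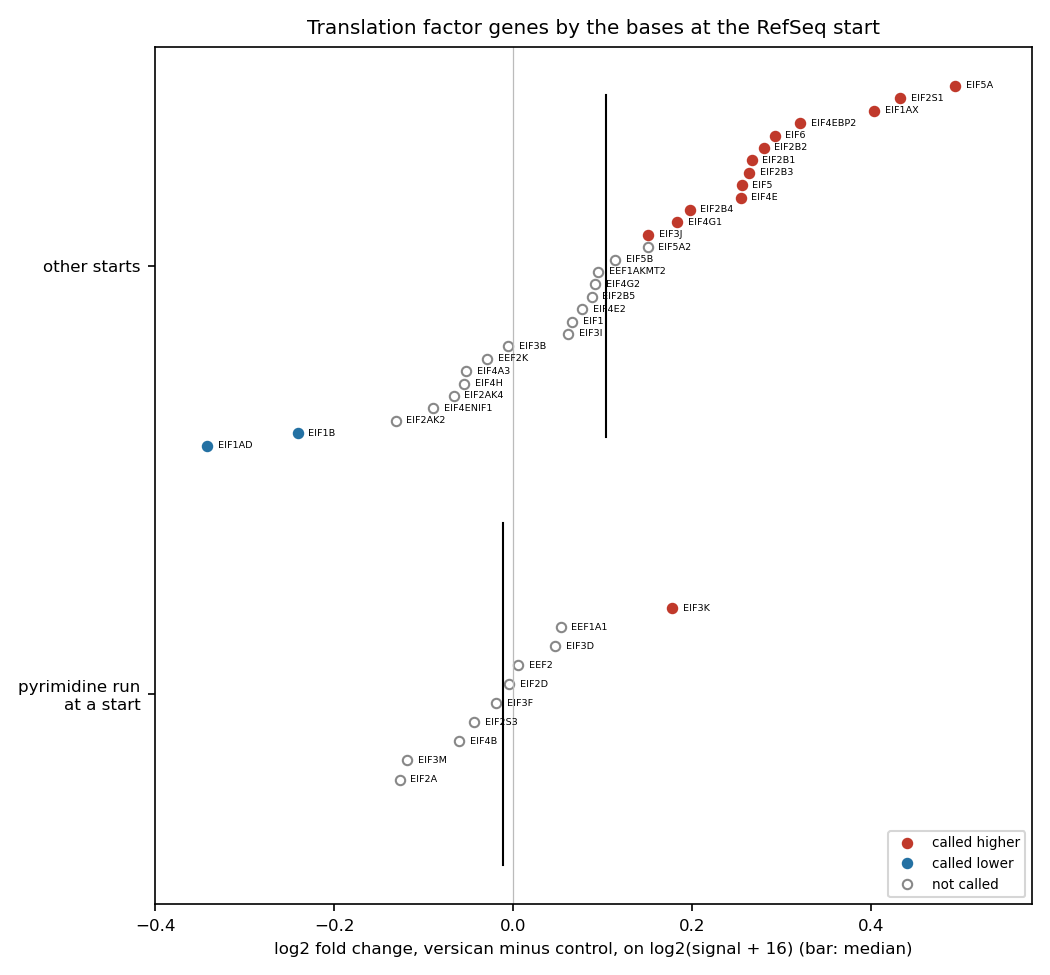
Log2 fold changes (horizontal axis, versican minus control on log2(signal + 16)) of the 40 tested genes with a RefSeq promoter are split by whether a start carries C followed by 4 pyrimidines; vertical bars are medians, -0.01 with and 0.10 without. EIF3K is the one filled point among the 10 with the pyrimidine start.

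Factors that choose the start codon and join the subunits moved in both directions. Of 5 tested, EIF1AX and EIF5 rose, EIF1B fell, and EIF1 and EIF5B were not called. The share called was 60%, against 41.6% of all tested genes. EIF1AX encodes eIF1A, which holds the scanning ribosome open and then helps to close it on the start codon. Its signals were 1338, 1359 and 1456 on the control arrays and 1781, 1962 and 1769 on the versican arrays. Every versican array was above every control array, a 1.32-fold rise (0.40 in log2, SE 0.063, adjusted p = 0.000657). EIF5, the activator of GTP hydrolysis by eIF2, gave 8172, 8799 and 8696 in control and 10151, 10122 and 10361 in versican, again with no overlap, at 0.26 (SE 0.049, adjusted p = 0.00221). EIF1B, a close relative of EIF1, gave 2685, 2684 and 2676 in control and 2192, 2171 and 2449 in versican. The control arrays lay within a few units of each other and the versican arrays all lay below them, at -0.24 (SE 0.058, adjusted p = 0.00747). EIF1 itself, which keeps scanning stringent, gave 22585, 26400 and 24730 in control and 25109, 25987 and 25904 in versican, and the groups overlapped (0.07, adjusted p = 0.452). Control array 1 was the lowest of the 6 for EIF1, as it was for the bright genes EEF1A1, EEF2, EIF4G2 and EIF3F. EIF5B, the GTPase that joins the subunits, had all versican arrays above the controls but stood at 0.11 with an adjusted p of 0.0647. The Y-linked copy EIF1AY was too dim to be tested.

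Of the 5 subunits of the exchange factor eIF2B, 4 rose (80%) and the median log2 fold change was 0.26. Of the 3 subunits of its substrate eIF2, 1 rose (33.3%), and 21.0% of all tested genes were called higher. EIF2B1, the regulatory alpha subunit, gave 2284, 2332 and 2214 in control and 2824, 2864 and 2548 in versican. The beta subunit EIF2B2 gave 2517, 2508 and 2413 in control and 2938, 3179 and 2931 in versican. The gamma subunit EIF2B3 gave 1218, 1105 and 1117 in control and 1344, 1372 and 1422 in versican. In each of these 3 the lowest versican array was above the highest control array, and the rises in log2 were 0.27 (SE 0.058, adjusted p = 0.00457), 0.28 (SE 0.053, adjusted p = 0.00197) and 0.26 (SE 0.063, adjusted p = 0.00724). The delta subunit EIF2B4 gave 1292, 1206 and 1137 in control and 1484, 1364 and 1326 in versican, without overlap, and was called at 0.20 with an adjusted p of 0.0452. That call was lost without control array 2 (0.20, adjusted p = 0.0989), control array 3 (0.15, 0.146), versican array 1 (0.15, 0.168), versican array 2 (0.21, 0.069) or versican array 3 (0.23, 0.0509). EIF2B5, the catalytic epsilon subunit, stood at 0.09 (adjusted p = 0.313) with overlapping groups.

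Within eIF2, the alpha subunit EIF2S1, which carries the regulatory phosphorylation site, gave 2811, 2159 and 2270 in control and 3380, 2965 and 3397 in versican. The versican arrays were all higher, 1.35-fold on the mean of logs (0.43, SE 0.095, adjusted p = 0.00471), but the other tested probe sets of the gene both stood at -0.04 and were not called. EIF2S2 and EIF2S3, the beta and gamma subunits, both stood at -0.04 (adjusted p = 0.627 and 0.705). EIF2A and EIF2D, which can deliver initiator tRNA without eIF2, stood at -0.13 (adjusted p = 0.102) and -0.0044 (adjusted p = 0.95). EIF2A was called without control array 3 (-0.17, adjusted p = 0.045).

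All 3 kinases of eIF2 in the set had negative values at their brightest probe set. Limma called 1 of them (33.3%, against 41.6% of all tested genes). EIF2AK1 encodes HRI, the kinase that answers to lack of haem and to mitochondrial stress. It gave 5152, 5228 and 4846 in control and 4026, 3886 and 4130 in versican, with every versican array lower, and fell by 0.34 on the log2 scale (SE 0.050, adjusted p = 0.000482). A dimmer probe set of EIF2AK1 stood at 0.28 and was not called (adjusted p = 0.146 in the fit over probe sets). EIF2AK2, the kinase PKR that binds double-stranded RNA, stood at -0.13 (adjusted p = 0.0663), with all versican arrays below the controls, and was called without control array 1 (-0.17, adjusted p = 0.0195). Its other tested probe sets stood at 0.16 and 0.25 and were not called, and the mean of its probe sets stood at 0.09 (adjusted p = 0.295). EIF2AK4, the amino acid sensor GCN2, stood at -0.07 (adjusted p = 0.494). Of 8 partners of the eIF2 phosphorylation loop outside the set, 1 was called higher and 4 lower (5 of 8 called, against 41.6% of all tested genes, and 20.6% for lower calls alone), with a median of -0.10. GCN1, the activator of GCN2, fell by 0.37 (SE 0.053, adjusted p = 0.000379), and PPP1R15B, which directs the phosphatase to eIF2, fell by 0.29 (SE 0.052, adjusted p = 0.00163). ABCF1, an eIF2-binding ATPase, rose by 0.24 (SE 0.058, adjusted p = 0.00763). Named after their values were seen, the kinase EIF2AK3 (PERK) fell by 0.26 and the ATF4 target TRIB3 by 0.19, while ATF4, the transcription factor translated when eIF2 is phosphorylated, stood at -0.02 (adjusted p = 0.8).

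The scaffold eIF3, which holds the small subunit together with eIF2 and the eIF4 proteins, had a median log2 fold change of 0.01. Limma called 2 of 12 tested subunits higher and 0 lower (16.7% called, against 41.6% of all tested genes). The same number passed at an unadjusted p of 0.05. EIF3J, a loosely bound subunit near the decoding centre, had the smallest p, with 3713, 3556 and 3582 in control and 4050, 3938 and 4066 in versican. No versican array reached down to the controls, and the change was 0.15 (SE 0.046, adjusted p = 0.0238). EIF3K, a small peripheral subunit, was called at 0.18 (SE 0.061, adjusted p = 0.0383). Both calls were near the threshold and were lost in several fits with 1 array left out, while the changes stayed positive. EIF3J lost its call without control array 2 (0.14, adjusted p = 0.0648), control array 3 (0.14, 0.0688), versican array 1 (0.15, 0.0822) or versican array 3 (0.14, 0.0764). EIF3K lost its call without control array 1 (0.13, adjusted p = 0.104), control array 3 (0.17, 0.0912), versican array 1 (0.16, 0.131) or versican array 3 (0.17, 0.103), and its adjusted p was 0.0604 with the replicate number as a block. The core subunits EIF3A and EIF3B stood at 0.0018 and -0.01, and EIF3D, which can bind the cap of certain messages, at 0.05. EIF3E, EIF3F, EIF3H, EIF3I and EIF3L stood at 0.03, -0.02, -0.02, 0.06 and -0.06. EIF3G, an RNA-binding subunit, stood at 0.15 (adjusted p = 0.136) and was called without versican array 1 (0.22, adjusted p = 0.037). EIF3M stood at -0.12 (adjusted p = 0.111) and was called without control array 2 (-0.17, adjusted p = 0.0333). For EIF3C a dim probe set with a mean of 38.6 in control and 30.1 in versican was not tested.

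Among the 6 tested eIF4 genes of the cap complex, the scaffold EIF4G1 and the cap-binding protein EIF4E rose. None was called lower at its brightest probe set. The share called higher was 33.3%, against 21.0% of all tested genes. EIF4G1, which bridges cap, poly(A)-binding protein and eIF3, gave 4180, 4189 and 4453 in control and 4886, 4762 and 4914 in versican. The groups did not overlap, at 0.18 (SE 0.048, adjusted p = 0.0114). EIF4E gave 2344, 2444 and 2074 in control and 2946, 2413 and 2846 in versican, and versican array 2 lay below the highest control. Its call at 0.25 (SE 0.085, adjusted p = 0.0349) was lost without control array 1 (0.27, adjusted p = 0.053), control array 3 (0.19, 0.117), versican array 1 (0.20, 0.13) or versican array 3 (0.22, 0.109). EIF4G2 (DAP5), a scaffold without the site for EIF4E, gave 14756, 17199 and 16779 in control and 17166, 17299 and 17359 in versican, with overlap (0.09, adjusted p = 0.278). EIF4E2 (4EHP), a cap-binding repressor, gave 2781, 2790 and 2696 in control and 2941, 2947 and 2836 in versican, higher on every versican array by little (0.08, adjusted p = 0.219). The helicase cofactors EIF4B and EIF4H stood at -0.06 and -0.06. With the mean of its probe sets EIF4B was called lower (-0.19, adjusted p = 0.00766). The helicase EIF4A2 (mean 7.62 in control, 17.5 in versican) and the cap-binding EIF4E3 (171 and 173) were not tested.

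Of the proteins that hold EIF4E back from EIF4G1, EIF4EBP2 rose from 1398, 1432 and 1408 in control to 1782, 1764 and 1759 in versican, with both groups tight and apart (0.32, SE 0.051, adjusted p = 0.000741). The EIF4E transporter EIF4ENIF1 stood at -0.09 (adjusted p = 0.51). The related EIF4EBP1, outside the set, was called lower at -0.18 (SE 0.065, adjusted p = 0.0473), with overlapping groups. It lost that call without control array 2 (-0.16, adjusted p = 0.126), control array 3 (-0.14, 0.155), versican array 1 (-0.14, 0.173) or versican array 3 (-0.19, 0.0908). In the list of mTORC1 and its targets that EIF4EBP1 belongs to, 1 of 14 tested genes rose and 2 fell (21.4% called, against 41.6% of all tested genes), with a median of 0.12. MKNK2, a kinase of EIF4E, fell by 0.24 (SE 0.048, adjusted p = 0.00303), and LARP1, the repressor of TOP messages, rose by 0.19 (SE 0.047, adjusted p = 0.008). With median centring neither was called (adjusted p = 0.12 for MKNK2 and 0.107 for LARP1), and LARP1 stood at 0.09 (adjusted p = 0.49) with the mean of its probe sets.

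EIF5A had the largest rise of the 51 tested genes, and EIF6 rose as well. EIF5A, the factor that carries hypusine and relieves stalled ribosomes, gave 7603, 7968 and 7838 in control and 11192, 10877 and 10924 in versican. The gap between the groups was several times the spread within them, a 1.41-fold rise (0.49, SE 0.046, adjusted p = 2.02e-05). Its paralogue EIF5A2 gave 1165, 989 and 912 in control and 1259, 1093 and 1050 in versican, which overlapped (0.15, adjusted p = 0.256). EIF6, which keeps the large subunit from joining too early and is needed to make it, gave 4848, 4989 and 4934 in control and 6118, 6040 and 5940 in versican. Every versican array was higher, at 0.29 (SE 0.044, adjusted p = 0.000513). Of 8 tested enzymes that make hypusine on eIF5A or diphthamide on eEF2, 1 rose and 1 fell (25% called, against 41.6%), with a median of -0.01. DHPS, the first hypusine enzyme, rose by 0.19 (SE 0.058, adjusted p = 0.0264), DNAJC24, a cochaperone of diphthamide synthesis, fell by 0.24 (SE 0.088, adjusted p = 0.0497), and DPH3 stood at 0.16 (adjusted p = 0.0686). DHPS was not called without control array 1 (adjusted p = 0.0767), control array 3 (0.0609), versican array 1 (0.0807) or versican array 2 (0.0617). DNAJC24 was not called without control array 2 (0.0887), control array 3 (0.171), versican array 1 (0.071), versican array 2 (0.0722) or versican array 3 (0.16), nor with the replicate number as a block (0.0844), quantile normalization (0.0591), cyclic loess (0.0611) or median centring (0.134).

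Limma called none of the tested eEF1 and eEF2 genes, and their log2 fold changes lay between -0.12 and 0.06. EEF1A1, which delivers aminoacyl-tRNA, gave 29823, 34777 and 32458 in control and 32844, 34674 and 33024 in versican, with overlap (0.05, 95% interval -0.10 to 0.20). EEF1A2, the form of muscle and neurons that some ovarian tumours express, gave 3093, 2685 and 2612 in control and 2696, 2447 and 2536 in versican, also with overlap (-0.12, adjusted p = 0.185). The exchange-factor subunit EEF1D stood at 0.06, the translocase EEF2 at 0.01 (95% interval -0.11 to 0.12) and its inhibitory kinase EEF2K at -0.03. Of the lysine methyltransferases of eEF1A, EEF1AKMT3 had the smallest p, with 388, 349 and 352 in control and 314, 303 and 315 in versican. All its versican arrays were lower, at -0.21 (SE 0.097, adjusted p = 0.107), and it was called when limma fitted no intensity trend (adjusted p = 0.0291). EEF1AKMT2 stood at 0.09 and EEF1AKMT1 at 0.17 (adjusted p = 0.213), the latter being called without control array 1 (0.27, adjusted p = 0.0453). EEF2KMT, which methylates eEF2, had means of 64.6 in control and 169 in versican and was not tested.

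EIF1AD and EIF4A3 carry factor names without being canonical initiation factors. EIF1AD, a nuclear protein with the domain of eIF1A, gave 3007, 3624 and 3532 in control and 2633, 2801 and 2553 in versican. It was lower on every versican array and fell by 0.34 (SE 0.073, adjusted p = 0.00416). EIF4A3, the helicase of the exon junction complex, stood at -0.05 (adjusted p = 0.484).

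**Figure D3:**
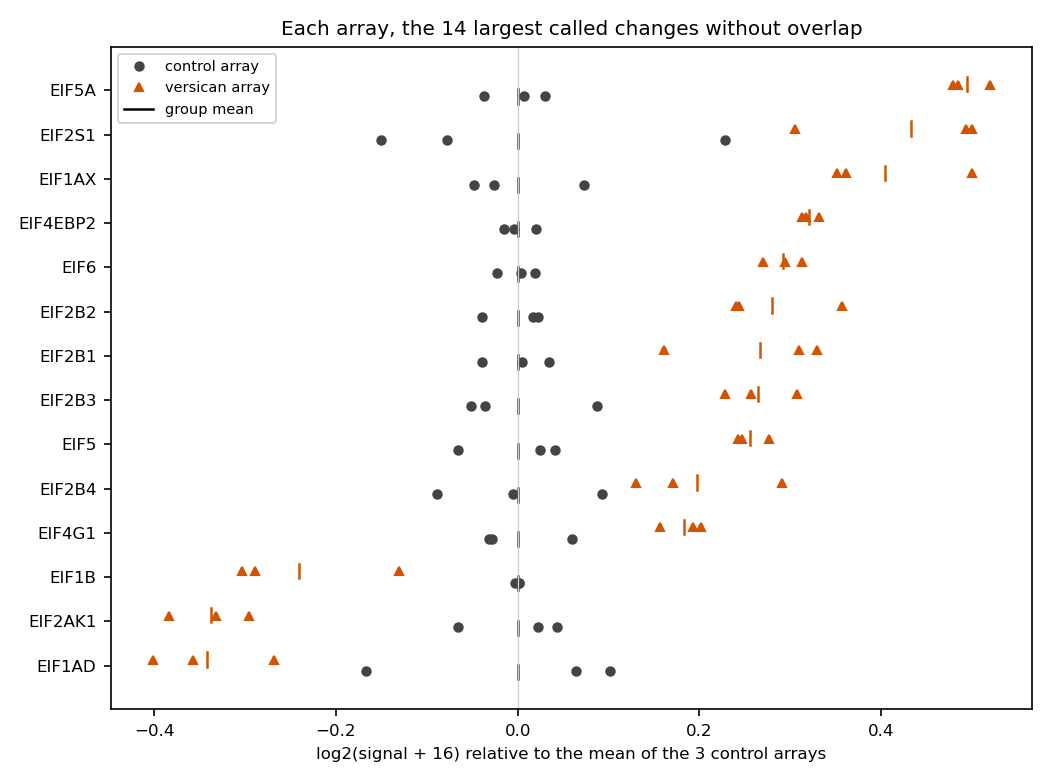
Each point is 1 array's log2(signal + 16) minus the mean of the 3 control arrays, for the 14 called genes with the largest changes whose groups do not overlap. EIF5A lies farthest to the right and EIF1AD, EIF2AK1 and EIF1B lie to the left of their controls.

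Related genes, not all of which can replace each other, were compared in 5 pairs within each array, so that a scaling shared by both genes drops out. The difference EIF5A minus EIF5A2 was 0.34 log2 units larger with versican (pooled SD of arrays 0.17), and EIF1 minus EIF1B was 0.31 larger (pooled SD 0.10), each with no overlap between groups. For EIF4E minus EIF4E2 the change was 0.18, for EEF1A1 minus EEF1A2 0.18 and for EIF4G1 minus EIF4G2 0.09, each with overlap. The two-sided exact permutation p was 0.1 for the first and second pairs, the smallest that 3 against 3 allows, and 0.25 after Benjamini-Hochberg adjustment over the pairs, so none could pass 0.05. With the mean of all probe sets in place of the brightest one, the EIF1 minus EIF1B change was 0.03, that of EIF4G1 minus EIF4G2 was 0.46, that of EIF4E minus EIF4E2 was 0.32 and that of EEF1A1 minus EEF1A2 was 0.05.

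Most genes of the set have several probe sets, which can read different stretches of the message. With every probe set as its own unit, 20545 were tested and 33.2% were called. Of 121 tested probe sets of the factors, 40 were called (33.1%), 30 higher and 10 lower. A further tested probe set existed for 12 of the 17 called genes, and 7 of these had a further call that went the same way and 0 one that went the opposite way. For EIF5A, EIF1AX, EIF3K and EIF1AD every tested probe set was called in 1 direction. The further ones of EIF5A stood at 0.57 and 0.61, those of EIF1AX at 0.38, 0.26 and 0.57, those of EIF3K at 0.21 and 0.26, and that of EIF1AD at -0.45. Of EIF5's further probe sets, 3 rose, at 0.20, 0.35 and 0.43, and 1 stood at -0.19 (adjusted p = 0.0565). Of 21 genes not called that had a further tested probe set, 8 had one that was called. EIF4B, with the pyrimidine start shown above, was -0.06 at its brightest probe set and -0.26 and -0.24 at other probe sets that were called lower. EIF5B had called probe sets at 0.27 and 0.51, EIF2S3 had one at 0.27 and EIF3B one at 0.21. EIF1 had one called at 0.32 and one called at -0.14. EIF2B4 had a further one called at 0.37, while its brightest had an adjusted p of 0.0542 in this fit. Dimmer probe sets were called lower for EIF3E (-0.70), EIF4E2 (-0.31) and EEF1A1 (-0.31). The 4 brightest probe sets of EEF1A1 stood between -0.01 and 0.06.

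**Figure D4:**
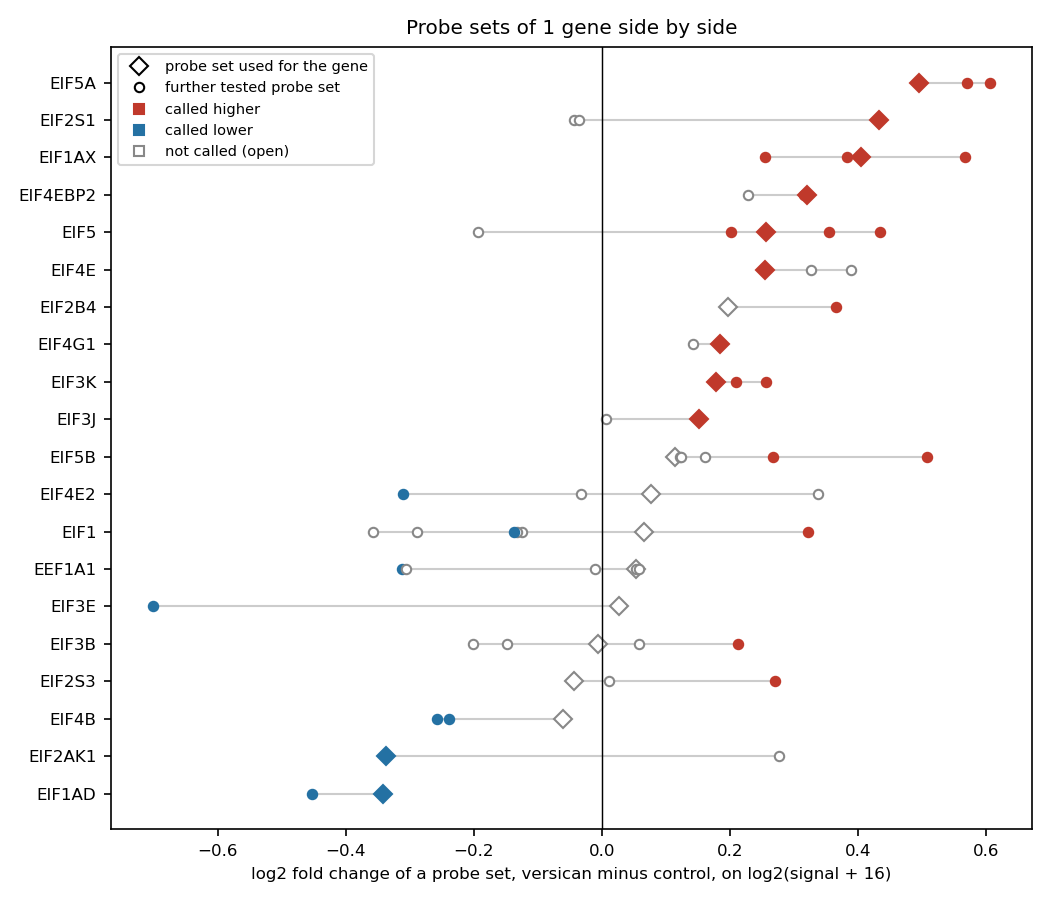
Tested probe sets are plotted by their log2 fold change (horizontal axis, versican minus control on log2(signal + 16)) for the 12 called genes with a further probe set and the 8 other genes with a called one; diamonds mark the brightest probe set of a gene and filled symbols were called. The probe sets of EIF5A and EIF1AX lie together to the right of 0, while those of EIF1 spread to both sides and EIF3E reaches -0.70.

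Proteins that work beside the factors were described by 7 lists, in which 26 of 67 tested genes (38.8%) were called, 17 higher and 9 lower, against 41.6% of all tested genes, so the lists as a whole were near the background. Over all tested genes 21.0% were called higher and 20.6% lower. Of 10 tested genes for reinitiation, termination and recycling, 5 rose (50%) and 0 fell, with a median of 0.14. ABCE1, the ATPase that splits ribosomes after termination, rose by 0.31 (SE 0.049, adjusted p = 0.000743), ZC3H15, a binding partner of the GTPase DRG1, by 0.23 (SE 0.044, adjusted p = 0.00245) and DENR, a reinitiation factor, by 0.26 (SE 0.078, adjusted p = 0.023). Of 10 tested mitochondrial translation factors, 5 rose (50%, against 21.0% of all tested genes) and 0 fell, with a median of 0.16. They include TUFM, the mitochondrial form of eEF1A, at 0.37 (SE 0.050, adjusted p = 0.000252), GFM1, an elongation factor, at 0.62 (SE 0.12, adjusted p = 0.00273) and the recycling factor MRRF at 0.35 (SE 0.094, adjusted p = 0.0125). Of 10 tested poly(A) and helicase partners, 3 rose and 1 fell (40% called, against 41.6%), with a median of 0.03. DHX9, an RNA helicase, rose by 0.66 (SE 0.069, adjusted p = 4.45e-05), the nuclear cap-binding NCBP1 by 0.30 (SE 0.086, adjusted p = 0.0183) and the poly(A)-binding protein inhibitor PAIP2 by 0.17 (SE 0.059, adjusted p = 0.0373). Of 7 genes for selenocysteine insertion, 1 rose and 1 fell (28.6% called, against 41.6%), with a median of -0.0040. SEPHS1 rose by 0.25 (SE 0.062, adjusted p = 0.00857), TRNAU1AP fell by 0.32 (SE 0.083, adjusted p = 0.0114) and SEPSECS stood at -0.33 (adjusted p = 0.0665). With the mean of probe sets, ZC3H15 (0.16, adjusted p = 0.251), TRNAU1AP (-0.28, 0.0612), NCBP1 (0.18, 0.279) and PAIP2 (0.04, 0.663) were not called. Without the _x_at and _s_at probe sets TRNAU1AP was at -0.23 (0.294). In fits with 1 array left out, 3 of these calls were lost for more than 1 choice of array. DENR was not called without control array 3 (adjusted p = 0.0873), versican array 1 (0.0899) or versican array 3 (0.0904). NCBP1 was not called without control array 3 (0.056), versican array 1 (0.0744) or versican array 3 (0.0726). PAIP2 was not called without control array 1 (0.093), control array 3 (0.0953), versican array 1 (0.0902) or versican array 2 (0.127).

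**Figure D5:**
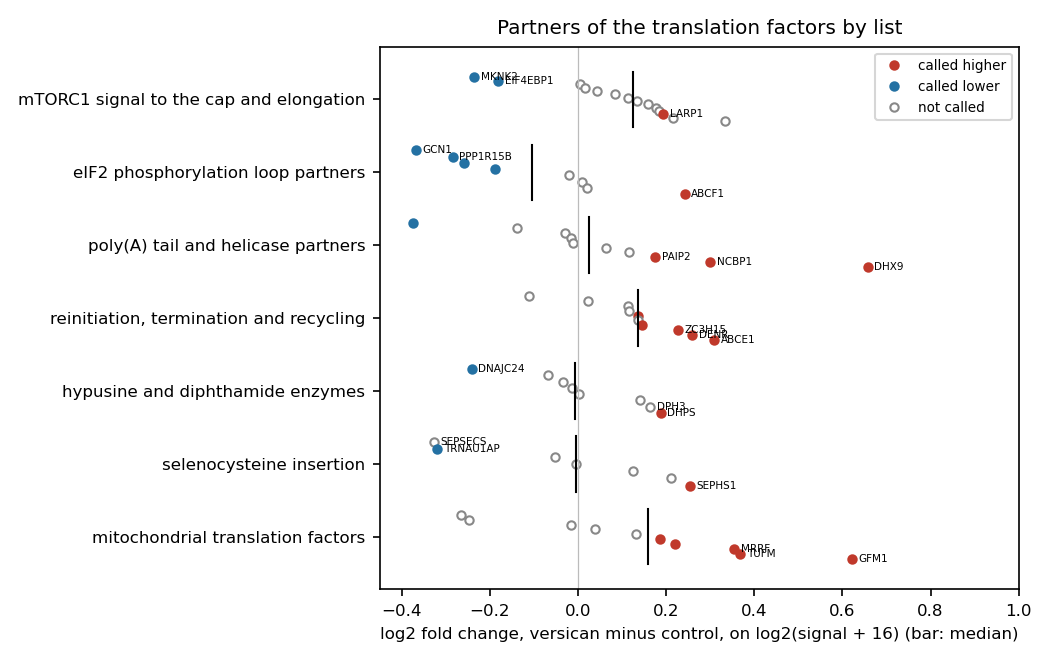
Each point is a tested gene of 7 partner lists, placed by its log2 fold change (horizontal axis, versican minus control on log2(signal + 16)), with the median of a list as a bar and the 3 genes of smallest p named. DHX9 at 0.66 and GFM1 at 0.62 lie farthest to the right, and the loop partners of eIF2 have the lowest median, -0.10.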

How the data were processed

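The authors deposited 1 table of intensity values, MAS5 probe set signals on a linear scale per the submitters' processing notes, for 6 arrays. Its version and detection calls are not stated in the sources used here. MAS5 subtracts mismatch probes and is noisy at low signal, so dim genes are the least certain. GEO's platform annotation gave 41091 of 54675 probe sets 1 symbol, 1801 several and 11721 non-control ones none, with 62 AFFX controls. Of the single symbols, 41037 were brought up to date by gene identifier. Columns were matched to samples by their names.

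Signals were analysed as log2(signal + 16), so fold changes of dim genes are understated. Each gene took its probe set of highest mean log2 value over the 6 arrays, and genes in the upper 50% (mean signal of at least 201) were tested with limma 3.58.1 (lmFit, eBayes with trend, two-sided) in R 4.3.3. P-values were adjusted over all 9887 tested genes by Benjamini-Hochberg at 0.05. The step was tested on simulated data. Exact permutation tests used scipy 1.17.1. RefSeq promoters came from GRCh38.p14. Whether array numbers pair the samples is not stated in the sources used here. Correlations of same-numbered deviations were 0.12, -0.02 and -0.09. With so few arrays in a group, these values cannot decide whether same-numbered arrays shared a day or batch.

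Members and lists were chosen with earlier results of these data known. Values of all 6 arrays are given for the 14 largest called changes without overlap, for 5 paralogue pairs and for the smallest p in each complex with 3 or more tested genes. The 3 genes of smallest p are named per partner list, and any other gene was named after its values were seen. Alternatives covered pseudocount, filter, scaling, trend, array weights, probe set choice, symbols, each array left out in turn and the replicate number as a block.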

Additional observations from a re-analysis of the deposited data

How the results depend on the processing

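The 14 higher and 3 lower calls stayed within 1.5 times of these counts under 19 of 20 alternatives. The higher calls ran from 10 to 13 and the lower from 3 to 4 when 1 array was left out. The share called over all genes moved more, from 19.8% with no filter to 49.0% in the upper 25%. With no filter 11 of 56 factors were called higher and 3 lower, a share above that of all genes. In the main setting the share of the factors was below it. Without the probe sets marked _x_at and _s_at, which can match several transcripts, 40 genes were tested, 6 called higher and 5 lower. With those probe sets removed, 6 genes changed sign: EIF5 (-0.19), EIF2S1 (-0.044), EIF3E (-0.70), EIF4E2 (-0.31), EEF1A1 (-0.31) and EIF3F (0.38, called in neither setting). With the mean of all probe sets 10 genes changed sign, of which EIF3E (-0.34) alone was called, and EIF2AK1 (-0.03), EIF4EBP2 (0.16), EIF1B (-0.12), EIF2S1 (0.12), EIF3J (0.08) and EIF4E (0.33) were not called. That setting also called EIF4B lower (-0.19) and EIF5B higher (0.22), each with its sign unchanged. Median centring left 10 higher and 2 lower, and EIF1B, EIF2B4, EIF3J, EIF3K and EIF4G1 uncalled. With the replicate block 13 were higher and 3 lower, and 2 of 6 arrays correlated best with their own number. Of the 17 called genes, 7 kept their call under every alternative that tested them: EIF1AX, EIF2B1, EIF2B2, EIF2B3, EIF5A, EIF6 and EIF1AD. All probe sets of EIF5A and EIF6 are marked _x_at or _s_at. The setting without such probe sets, in which EIF5 and EIF2S1 changed sign, therefore did not test these genes. Over all genes the count of calls fell from 4117 to 2421 when only the upper 25% were tested, where fewer genes were tested. The share called rose from 41.6% to 49.0%. With 3 arrays a group, changes of the size seen in eIF3 and the EEF genes lie near the standard errors, and a missing call does not show equal levels.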

Other observations

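A pair of promoter motifs was counted in the same RefSeq windows of 300 bases on both strands, after the values were known, and no test was made. The E-box CACGTG, bound by MYC and related factors, was in the windows of 12 of 40 tested factor genes (30.0%), of 13.1% of all tested genes with a promoter and in 7.26% of promoters. Of these 12 genes, 4 were called higher and 1 lower (41.7% called), the same share as over all tested genes with the E-box (41.7%) and near that of genes without it (41.5%). The ETS motif CCGGAAG was held by 11 of the 40 (27.5%), by 23.8% of tested genes and by 10.3% of promoters, and 5 of the 11 were called higher and 1 lower (54.5% called). Over all tested genes the share called was 36.0% with the ETS motif and 43.2% without it. Among the factor genes, the window of EIF5A2 holds both motifs.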
